A study of Homo sapiens with 44 samples.

Results

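RNA from MDA-MB-231 cells in which RelA had been silenced was set directly against RNA from the same line in which RelB had been silenced. The comparison takes 4 of the 44 samples of the series, 2 siRelA and 2 siRelB libraries, chosen by their labels and by the matching columns of the deposited count table. MDA-MB-231 is an established human line grown from a triple-negative breast cancer, a tumour type that lacks the oestrogen and progesterone receptors and HER2 amplification. Cells of every group received siRNA at 20 nM with a lipid transfection reagent and were collected 48 h later, per the general protocol in the labels, and polyadenylated RNA was sequenced. The 2 control siRNA libraries of the same experiment did not enter any test, and their levels are given only to show where the untargeted cells lay. The sources used here give neither the sequences nor the number of siRNAs for each target, so loss of a subunit and other actions of its siRNA cannot be told apart. All libraries came from 1 cell line, and the sources used here do not say whether replicates were separate cultures, so the p-values measure only the spread between these samples.

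NF-kB is a family of dimeric transcription factors that switch on inflammatory and survival genes. In the canonical pathway, RELA paired with the p50 product of NFKB1 is held in the cytoplasm by IkB proteins until the IKK complex marks them for destruction. In the non-canonical pathway, the kinase NIK, encoded by MAP3K14 and kept low by TRAF3, TRAF2 and the cIAP proteins, drives processing of the NFKB2 precursor to p52, which pairs with RELB. Several IkB proteins, A20 (TNFAIP3) and cIAP2 (BIRC3) are themselves NF-kB target genes and close feedback loops. Triple-negative breast cancer lines such as this one are known for NF-kB activity without added stimulus.

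The deposited counts summed to between 18.6 and 24.4 M per library. Levels are given in CPM, the usual depth-normalised unit, a gene's counts as a share of its library's scaled total over the 6 libraries of the experiment, and differences as log2 of siRelA minus siRelB ± SE with 2 libraries a group, from edgeR's quasi-likelihood test fitted to the 4 libraries. A gene is called higher or lower where its Benjamini-Hochberg adjusted p over the 15304 genes tested was under 0.05. The mesenchymal markers of the line were high, with VIM at 1113 and 1137 CPM and AXL at 1766 and 1557 CPM in the siRelA libraries. The luminal genes ESR1, PGR, CDH1 and FOXA1 were under 1 CPM in each of the 6 libraries, while ERBB2 lay between 70.2 and 88.1 CPM and EPCAM between 12.6 and 21.9 CPM. Of the markers of other cell types, DCN, PDPN, CD3E, ITGAM and SPI1 had 0 counts in these 6 libraries, but others were present. COL1A1 stood at 38.5 and 34.2, COL1A2 at 23.7 and 19.3 and CSF1R at 16.0 and 16.1 CPM in the siRelA libraries. Each of these was called higher under siRelA.

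Each targeted gene was lowest in the libraries labelled for it. RELA (11:65653599-65663090, GENCODE v44 on GRCh38) stood at 10.7 and 12.5 CPM under siRelA and at 165 and 157 CPM under siRelB, against 153 and 150 CPM with control siRNA. The siRelA libraries were thus the low ones, and RELA was lower by 13.9-fold (log2 -3.81 ± 0.11, edgeR adjusted p = 1.3e-09). RELB (19:45001461-45038192) stood at 15.2 and 13.4 CPM under siRelA, at 4.77 and 5.4 CPM under siRelB and at 39.8 and 40.4 CPM in the controls. RELB was 2.82-fold higher under siRelA (log2 1.48 ± 0.21, edgeR adjusted p = 1.9e-04), although both knockdown groups lay under the controls. The contrast therefore sets cells low in RELA and intermediate in RELB against cells with RELA at the control level and least RELB.

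The other subunits separated the p52 precursor from the rest. NFKB2 (10:102394110-102402524), which encodes the p100 precursor of p52, stood at 69.2 and 73.0 CPM under siRelA and at 148 and 167 CPM under siRelB, with the controls between them at 120 and 102 CPM. It was lower under siRelA by log2 -1.16 ± 0.09 (edgeR adjusted p = 2.9e-06). NFKB1 (4:102501330-102617302), the source of p50, gave log2 -0.12 ± 0.12 (edgeR adjusted p = 0.499), and its groups overlapped at 53.6 and 48.5 against 50.0 and 59.6 CPM. REL, the third Rel protein with a transactivation domain, stayed between 4.04 and 4.61 CPM in all 6 libraries.

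Over all genes, 2150 were higher under siRelA, 14.0% of those tested, and 2119 were lower, 13.8%, together 27.9%. List counts below are to be read against these shares. The higher genes were more often far apart. At least a 2-fold difference was found for 578 higher genes (3.78%) and 290 lower genes (1.89%), and at least a 4-fold difference for 139 (0.908%) and 51 (0.333%). CPM values of the 2 groups did not overlap for 64.3% of the genes tested, so a lack of overlap on its own says little with 2 libraries a side. The control level is one way to see which knockdown stood apart: on log2(CPM + 0.05), the control mean was nearer to siRelA for 1291 of the 2150 higher genes and nearer to siRelB for 1299 of the 2119 lower genes. These counts describe positions and were not tested.

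**Figure D1:**
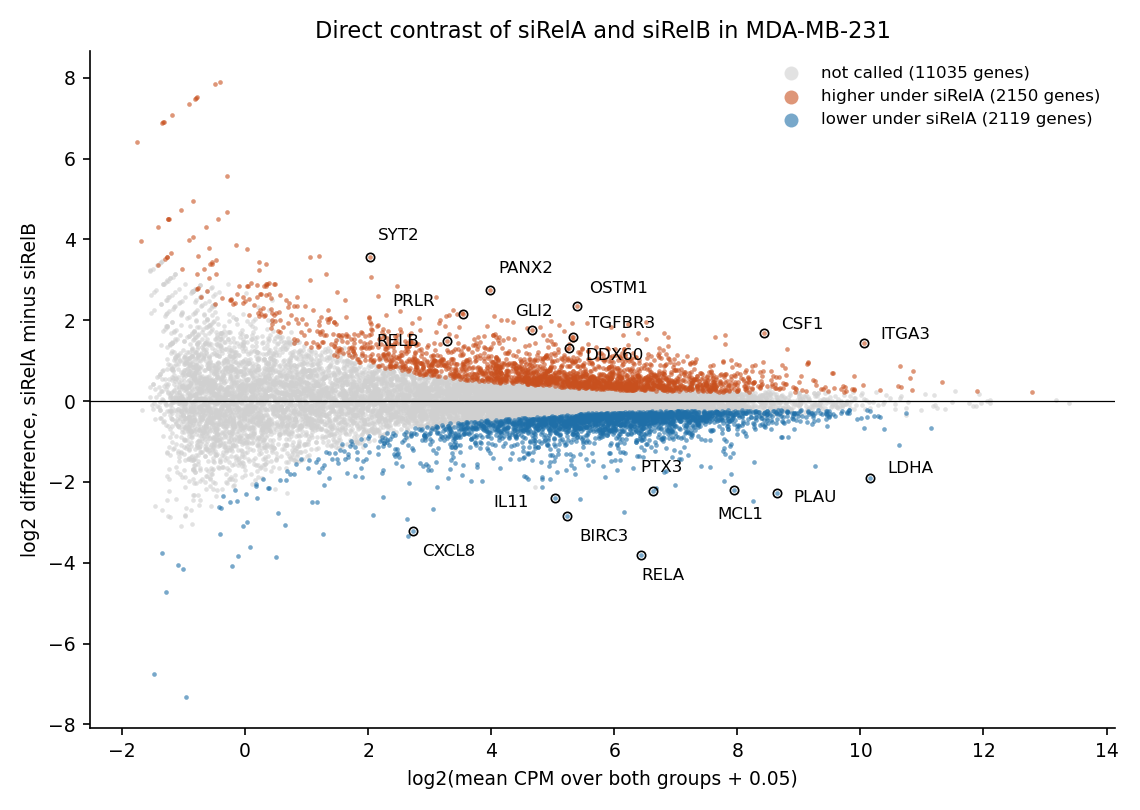
Each point is 1 of the 15304 genes tested, with the log2 of its mean CPM over siRelA and siRelB on the x axis and the log2 difference, siRelA minus siRelB, on the y axis. Orange points are the 2150 genes called higher and blue points the 2119 called lower, RELA is the lowest of the circled genes, and points beyond 6 in either direction are genes with almost no counts in one group, whose fitted size is not a measured fold.

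Of the brakes of the pathway, some were lower where RelA was silenced and none was called higher. Of 16 listed genes for IkB proteins and other NF-kB inhibitors, all tested, 7 were lower under siRelA, 0 higher and 9 not called, with a median log2 difference of -0.47 against -0.01 over all genes. DESeq2 also called 0 higher, and 1 was higher at an unadjusted edgeR p under 0.05. TNFAIP3, whose A20 protein trims ubiquitin chains from NF-kB signalling complexes, stood at 4.81 and 4.72 CPM under siRelA, 16.5 and 14.0 under siRelB and 10.9 and 10.2 in the controls (log2 -1.69 ± 0.20, edgeR adjusted p = 6.8e-05). NFKBIE, which encodes IkB-epsilon, showed the same order with 35.4 and 35.4 CPM under siRelA, 83.4 and 88.5 under siRelB and 56.7 and 56.9 in the controls. For both genes the siRelB libraries lay above the controls as well as above siRelA.

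IkB-alpha and IkB-beta differed in another way. NFKBIA stood at 31.7 and 32.2 CPM under siRelA and 61.8 and 66.3 CPM under siRelB (log2 -1.02 ± 0.11, edgeR adjusted p = 2.2e-05), with the controls highest at 69.8 and 78.0 CPM. NFKBIB stood at 20.4 and 22.3 CPM under siRelA against 38.2 and 49.5 under siRelB and 40.7 and 34.2 in the controls, a log2 difference of -1.06 ± 0.15. The deubiquitinase gene CYLD (log2 -0.65 ± 0.14) and the RNase gene ZC3H12A (log2 -0.86 ± 0.20) were also lower. TNFAIP2, the seventh, was lower by log2 -0.35 ± 0.10, but not without siRelB replicate 2 (-0.23). BCL3, NFKBIZ, TNIP1, TNIP2 and OTULIN were among the 9 members not called, with BCL3 at 31.4 and 24.4 CPM against 27.0 and 27.1.

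Kinases and adaptors were called in both directions. Of 21 listed kinases, TRAF proteins and inhibitors of apoptosis, 3 were higher and 10 lower under siRelA (median log2 -0.13). BIRC3 (11:102317484-102339403), which encodes cIAP2, stood at 9.95 and 8.63 CPM under siRelA, 60.3 and 71.0 CPM under siRelB and 47.1 and 62.1 CPM in the controls. It was lower by 7.07-fold (log2 -2.84 ± 0.14, edgeR adjusted p = 6.2e-08), with siRelB and control libraries overlapping. TRAF1, a partner of cIAP2 at TNF receptors, was lower at 25.2 and 23.1 against 50.5 and 50.0 CPM (log2 -1.07 ± 0.12). MAP3K14, the NIK gene, stood at 90.4 and 86.8 CPM under siRelA and 141 and 152 CPM under siRelB (log2 -0.74 ± 0.09, edgeR adjusted p = 5.7e-05). Here the controls were lowest, at 64.4 and 69.7 CPM, so both knockdowns lay above them.

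The genes higher under siRelA in this group were TBK1, MAP3K7 and XIAP. TBK1, a kinase shared by innate immune and NF-kB signalling, stood at 46.7 and 48.7 CPM under siRelA, 20.7 and 19.8 under siRelB and 45.8 and 56.7 in the controls (log2 1.22 ± 0.13, edgeR adjusted p = 1.9e-05). The siRelB libraries were the ones set apart. MAP3K7, encoding TAK1, was higher by log2 0.75 ± 0.13. The XIAP difference of 0.32 was lost without siRelA replicate 1 (0.25) and without either siRelB library (0.25 and 0.41), and in DESeq2 (0.33). TRAF4 (log2 -0.81 ± 0.10), TRAF2 (-0.54 ± 0.10), TAB2 (-0.48 ± 0.10) and BIRC2 (-0.42 ± 0.08), the cIAP1 gene, were lower. The IKK genes IKBKB and IKBKG were not called, at log2 -0.13 ± 0.12 and -0.10 ± 0.17, while CHUK (-0.37), IKBKE (-0.47) and TRAF3 (-0.36) were lower with all 4 libraries. CHUK lost its call without siRelA replicate 1 (-0.31) or siRelB replicate 1 (-0.27), IKBKE without siRelA replicate 2 (-0.32) or siRelB replicate 1 (-0.33), and TRAF3 without siRelA replicate 2 (-0.26) or siRelB replicate 2 (-0.31).

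Receptors and ligands of the TNF family were called in both directions. Of 27 listed genes 22 had enough counts to test, and 2 were higher and 5 lower (median log2 0.18). Those are 9.09% and 22.7%, against 14.0% and 13.8% over all genes. The decoy TRAIL receptor gene TNFRSF10D stood at 17.4 and 20.7 CPM under siRelA, 42.8 and 43.2 under siRelB and 30.1 and 28.4 in the controls (log2 -1.19 ± 0.14, edgeR adjusted p = 4.7e-05). TNFRSF1A, the main TNF receptor, was lower by log2 -0.44 ± 0.09, and the neurotrophin receptor gene NGFR was higher by 0.71 ± 0.15. The lymphotoxin receptor gene LTBR, an entry point of the non-canonical pathway, gave log2 0.24 ± 0.08 (edgeR adjusted p = 0.0527), and CD40 gave -0.32 ± 0.16. TNFRSF9 (-2.41) and TNFRSF12A (-0.40) lost their calls without siRelA replicate 1 (-2.02 and -0.20) or siRelB replicate 2 (-1.53 and -0.30). TNFRSF19 (-0.79) lost its call without siRelA replicate 2 (-0.52), without siRelB replicate 2 (-0.77) and in DESeq2 (-0.78), and TNFSF12 (0.81) without siRelB replicate 1 (0.50). The lower count fell to 3 without siRelA replicate 1 and to 2 without siRelB replicate 2, and the higher count to 1 without siRelB replicate 1. TNF itself had 0 counts in all 6 libraries.

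The neutrophil-attracting chemokine genes CXCL8, CXCL3 and CXCL1 were lower under siRelA. CXCL8 (4:73740519-73743716), which encodes interleukin-8, stood at 0.930 and 1.68 CPM under siRelA, 12 and 11.8 under siRelB and 6.85 and 6.53 in the controls, so that the 3 groups did not overlap (log2 -3.21 ± 0.30, edgeR adjusted p = 1.0e-05). CXCL3 stood at 0 and 0.227 CPM against 1.54 and 1.71 (log2 -3.84 ± 1.01, edgeR adjusted p = 0.0124). CXCL1 stood at 0.728 and 0.182 against 2.01 and 2.07 CPM (log2 -2.15 ± 0.72, edgeR adjusted p = 0.0404). These levels rest on few reads: CXCL3 was not called without siRelA replicate 1 (-2.82), and CXCL1 not without siRelA replicate 2 (-1.48) or siRelB replicate 2 (-2.12). CXCL1, CXCL2 and CXCL3 are close copies of each other, and the counting could have split or dropped reads shared between them. CXCL2 was not called, at 1.38 and 1.09 against 1.80 and 1.92 CPM.

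The other tested chemokines held 2 higher genes and 2 that were not called. CX3CL1, the membrane-bound fractalkine, was higher under siRelA at 9.95 and 8.54 against 5.19 and 3.83 CPM (log2 1.02 ± 0.25, edgeR adjusted p = 0.00839). CCL28 was called higher at 4.77 and 4.68 against 2.70 and 1.87 CPM, a call that ended without either siRelA library (1.02 and 1.06), without siRelB replicate 2 (0.80) and in DESeq2 (1.04). CXCL16 (log2 -0.29 ± 0.51) and CCL26 (0.59 ± 0.62), both at no more than 2.07 CPM in the siRelA and siRelB libraries, were not called. In all, 2 of the 8 chemokines tested were higher, 3 lower and 3 not called. Those 7 of the 15 listed that could not be tested include CXCL5 and CXCL6, with 0 counts in all 6 libraries, and CCL20, which had no more than 0.121 CPM.

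NF-kB dimers are known to bind kB-type sequences, and short windows around such a match are shown for genes on both sides of the call. Windows come from RefSeq promoters on GRCh38.p14, each taken from 250 bases before to 50 after a gene's start, written 5′ to 3′ on the strand given, with the match to GGANNTTCC in capitals.
CXCL8, chr4:73740470-73740494, plus strand: caaatcgtGGAATTTCCtctgacat
CXCL1, chr4:73869307-73869331, plus strand: gaactccgGGAATTTCCctggcccg
CXCL3, chr4:74038751-74038775, minus strand: gagctccgGGAATTTCCctggcccg
CXCL2, chr4:74099256-74099280, minus strand: gagctccgGGAATTTCCctggcccg
IL6, chr7:22727120-22727144, plus strand: caaatgtgGGATTTTCCcatgagtc
NFKBIA, chr14:35404814-35404838, minus strand: actggcttGGAAATTCCccgagcct
TNFAIP3, chr6:137867184-137867208, minus strand: tttccacgGGACTTTCCaaagtcac
ICAM1, chr19:10270926-10270950, plus strand: tttagcttGGAAATTCCggagctga
NFKB1, chr4:102501303-102501327, plus strand: cgtcagtgGGAATTTCCagccagga
PRLR, chr5:35118159-35118183, plus strand: acaaaacgGGAGATTCCatttctgg
The windows of CXCL2 and CXCL3 are the same 25 bases, yet CXCL3 was called lower and CXCL2 was not. CXCL8, CXCL1, IL6, NFKBIA, TNFAIP3 and ICAM1 were lower under siRelA, NFKB1 was not called, and PRLR, a gene outside the pathway, was higher. A match to these letters is a description and not a bound site.

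Genes lower by at least 2-fold under siRelA held the motif in a larger share than the rest. Both strands were searched for GGANNTTCC, and 4.59% of all 27305 promoter windows held a match. Of their windows, 22 of 194 held it (11.3%), while genes lower by less held it in 72 of 1515 (4.75%). Genes not called held it in 345 of 7601 windows (4.54%), and genes higher by at least 2-fold in 18 of 418 (4.31%). Within the 7 lists of NF-kB genes, 11 of 36 windows of lower genes, 7 of 44 of genes not called and 0 of 5 of higher genes held the motif. These shares were not tested, and those lists hold many known NF-kB targets.

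**Figure D2:**
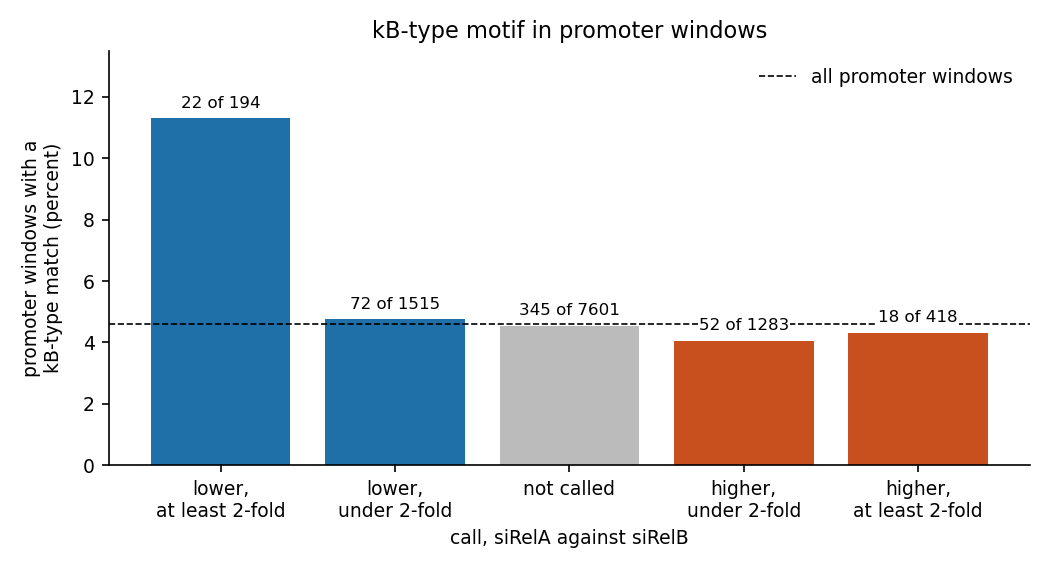
Bars give the percent of 300-base promoter windows with a match to the kB-type motif for genes grouped by their call, siRelA against siRelB, with the number of windows above each bar and the share of all promoter windows as a dashed line. The bar for genes lower by at least 2-fold stands at 11.3%, and the other 4 bars lie between 4.05% and 4.75%.

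Among cytokines, IL11, IL6 and IL32 were lower under siRelA, and CSF1 was higher. IL11 (19:55364382-55370463), a gp130 cytokine linked to bone metastasis of this line, stood at 8.73 and 12.4 CPM under siRelA, 56.1 and 54.6 under siRelB and 31.7 and 32.5 in the controls (log2 -2.41 ± 0.16, edgeR adjusted p = 7.6e-07). IL6 stood at 5.38 and 6.13 CPM under siRelA, 12.4 and 17.3 under siRelB and 9.56 and 10.3 in the controls (log2 -1.38 ± 0.22). IL32 stood at 8.01 and 9.99 against 27.1 and 20.0 CPM (log2 -1.41 ± 0.20). In all 3, the siRelB libraries were the highest and the siRelA libraries the lowest. LIF, of the same family as IL6, was not called (log2 -0.23 ± 0.10), and its controls at 108 and 115 CPM lay above both knockdowns, at 60.8 and 69.5 against 75.5 and 75.4 CPM. CLCF1 (log2 0.18 ± 0.16) and CNTF (-0.60 ± 0.73), 2 more of that family, were not called either, and OSM had 0 counts.

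CSF1, the growth factor of macrophages, was 1 of the 2 cytokines higher under siRelA, and for both the control mean was nearer to siRelA. It stood at 537 and 522 CPM under siRelA, 160 and 164 under siRelB and 452 and 484 in the controls, and was 3.26-fold higher under siRelA (log2 1.69 ± 0.08, edgeR adjusted p = 3.6e-08). The gene of its receptor, CSF1R, had the same order at 16.0 and 16.1, 5.83 and 8.32, and 11.5 and 10.9 CPM (log2 1.16 ± 0.21). CSF1R is also one of 12 listed haematopoietic markers, of which PTPRC, the defining one, had at most 0.182 CPM in any library. IL1RN, the interleukin-1 receptor antagonist, was the other, at 3.11 and 3.04 against 0.901 and 0.706 CPM with controls at 3.02 and 2.38, but lost its call without siRelA replicate 1 (1.90). IL24 (log2 -0.65) was called lower, but not without siRelA replicate 1 (-0.42), without siRelB replicate 2 (-0.49) or in DESeq2 (-0.64). Over the list, 2 of 15 tested cytokines were higher and 4 lower (median log2 -0.60), and the higher count fell to 1 without siRelA replicate 1.

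Of 22 tested effector genes that NF-kB is known to induce, 10 were lower and 0 higher (median log2 -0.32). DESeq2 also called 10 lower and 0 higher, and 1 was higher at an unadjusted edgeR p under 0.05. Without siRelA replicate 2 the higher count was 2, and without siRelB replicate 2 it was 1. PLAU, the urokinase that activates plasmin at the cell surface, stood at 122 and 153 CPM under siRelA, 632 and 690 under siRelB and 779 and 729 in the controls (log2 -2.28 ± 0.11, edgeR adjusted p = 3.6e-08). HBEGF, an EGF receptor ligand, stood at 46.0 and 51.6, 195 and 215, and 181 and 166 CPM (log2 -2.09 ± 0.10). For these genes siRelA alone lay far from the controls.

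PTX3, a secreted pattern-recognition protein, instead moved to both sides of the controls. It stood at 31.8 and 38.3 CPM under siRelA, 151 and 174 under siRelB and 66.1 and 78.2 in the controls (log2 -2.23 ± 0.11, edgeR adjusted p = 6.2e-08). ICAM1, the adhesion molecule for leukocyte integrins, did the same at 8.53 and 8.99, 18.6 and 20.2, and 11.5 and 12.4 CPM (log2 -1.16 ± 0.17). CD83 (log2 -1.47 ± 0.16), IER3 (-0.61 ± 0.08), GADD45B (-0.62 ± 0.14), the urokinase receptor gene PLAUR (-0.53 ± 0.09) and LAMB3 (-0.57 ± 0.08) were lower as well. PTGS2, CFLAR, BCL2L1, SDC4 and IRF1 were not called, with CFLAR at log2 -0.33 ± 0.12 (edgeR adjusted p = 0.0583).

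**Figure D3:**
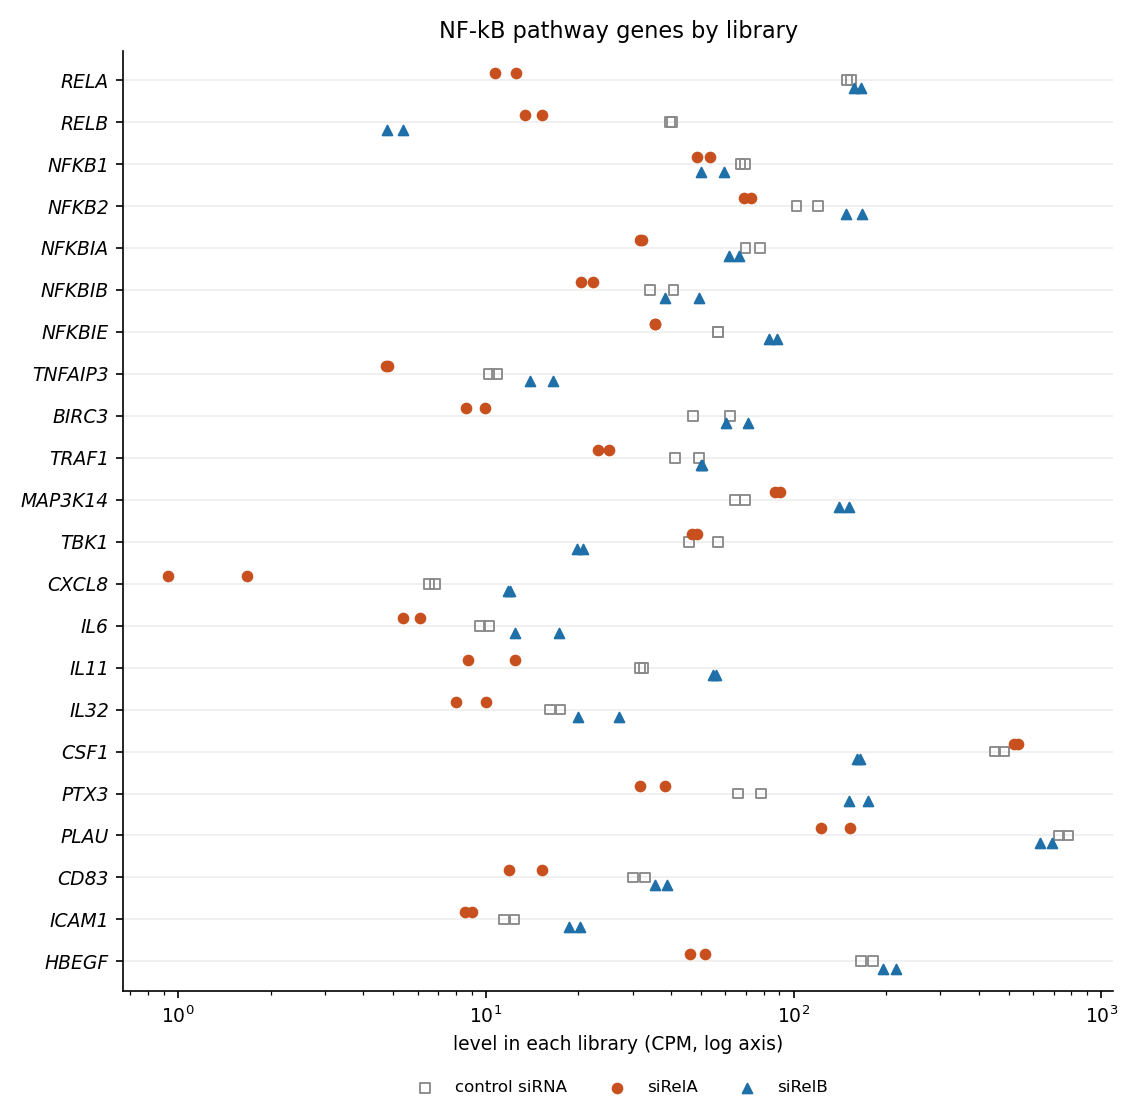
Levels of 22 NF-kB pathway genes in each library, in CPM on a log axis, with siRelA as circles, siRelB as triangles and control siRNA as open squares. From NFKBIA to MAP3K14 and for the chemokine, interleukin and effector genes the circles lie left of the triangles, while RELB, TBK1 and CSF1 have the triangles to the left.

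Of 46 listed interferon-stimulated genes, all tested, 18 were higher where RelA was silenced, 2 were lower and 26 were not called (median log2 0.37), and for 17 of the 18 the control mean was nearer to siRelB. DDX60, a helicase of antiviral sensing, stood at 50.6 and 59.1 CPM under siRelA, 20.8 and 22.5 under siRelB and 19.3 and 23.9 in the controls (log2 1.32 ± 0.13, edgeR adjusted p = 1.2e-05). IFI44 stood at 35.2 and 51.8, 16.6 and 17.6, and 22.7 and 25.0 CPM (log2 1.33 ± 0.18). OASL (log2 1.32 ± 0.21) and DHX58 (1.44 ± 0.26), which encodes the RNA sensor LGP2, were higher as well. The siRelA libraries were the high ones in each of these genes. SP110 (log2 -0.77 ± 0.18) and DTX3L (-0.57 ± 0.11) were lower. For SP110 the siRelB libraries were set apart, with siRelA at 15.2 and 11.1 CPM and the controls at 14.3 and 13.9. For DTX3L the siRelA libraries were set apart, at 38.2 and 34.4 CPM against 53.4 and 53.1 under siRelB and 49.7 and 51.0 in the controls.

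The response element bound by interferon-activated factors was common in the list whatever the call. Windows with this motif on either strand (GAAA, any 2 bases, then GAAA, in capitals) are shown for the genes named above that had a match, of which DDX60 and IFI44 were higher and DTX3L was lower.
DDX60, chr4:168318823-168318848, minus strand: gctgaaggGAAACTGAAAcctaagtg
DDX60, chr4:168318788-168318813, minus strand: ggagaaagGAAACCGAAActcccgcc
IFI44, chr1:78649763-78649788, minus strand: agagaaagGAAACTGAAActcagtgt
DTX3L, chr3:122564324-122564349, plus strand: agggaagcGAAACTGAAActttgcgc
The motif was found in 9 of 13 windows of listed genes called higher, in 13 of 22 of those not called and in 1 of 2 of those called lower, against 3.65% of all promoter windows. DDX60 also held a match to GGANNTTCC, in a separate place 31 bases after its start.

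Antigen presentation did not follow the interferon genes. Of 25 listed, 2 were higher and 4 lower (median log2 -0.03), shares of 8.00% and 16.0% that lie near those of all genes. NLRC5, the activator of class I genes, was higher at 41.5 and 40.9 against 27.7 and 26.0 CPM (log2 0.60 ± 0.12). TAPBP (log2 -0.57 ± 0.08) and the peptide transporter gene TAP1 (-0.57 ± 0.09) were lower. TAPBP stood at 262 and 237 against 369 and 366 CPM, with the controls near siRelB at 352 and 372 CPM. TAP1 stood at 94.9 and 92.1 against 139.5 and 134.4 CPM, with the controls near siRelA at 96.6 and 105 CPM. For 3 of the 4 lower genes the control mean was nearer to siRelA, and for 1 nearer to siRelB. TAP1 lies within the span of PSMB9 in GENCODE v44, and the sources used here do not give the strand setting of the counting, so reads of these neighbours may have been mixed. PSMB9 lost its call without siRelA replicate 1 (-0.31), TAP2 without siRelA replicate 1 (-0.28) or siRelB replicate 2 (-0.24), and CALR without siRelB replicate 1 (0.28) or replicate 2 (0.34). The lower count was 2 without siRelA replicate 1 and 8 without siRelA replicate 2, and the higher count was 1 without either siRelB library.

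Hypoxia and glycolysis genes held calls on both sides. Of 36 tested, 7 were higher, 12 lower and 17 not called (median log2 -0.15). For all 7 the control mean was nearer to siRelA, and for all 12 nearer to siRelB. LDHA, which makes lactate, stood at 506 and 474 CPM under siRelA, 1779 and 1821 under siRelB and 2081 and 1852 in the controls (log2 -1.89 ± 0.08, edgeR adjusted p = 1.3e-08). The glucose transporter gene SLC2A3 stood at 19.0 and 16.1, 60.3 and 52.8, and 86.5 and 87.8 CPM (log2 -1.70 ± 0.14), and HK1, the first enzyme of glycolysis, at 157 and 149, 288 and 289, and 342 and 331 CPM (-0.93 ± 0.08). ADM, a vasodilator peptide, was also lower (log2 -1.88 ± 0.19). In these genes the siRelA libraries were far below the other 4.

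On the other side, the carbonic anhydrase gene CA12 stood at 27.9 and 25.4 CPM under siRelA, 6.25 and 5.95 under siRelB and 17.3 and 15.8 in the controls (log2 2.11 ± 0.17, edgeR adjusted p = 2.9e-06). NDRG1, a stress-induced gene, stood at 136 and 139, 82.3 and 88.5, and 199 and 184 CPM (log2 0.67 ± 0.09). The collagen prolyl hydroxylase gene P4HA2 was higher by 0.48 ± 0.10. PFKFB4 (log2 0.50) lost its call without siRelA replicate 1 (0.50), without siRelB replicate 2 (0.32) and in DESeq2 (0.51).

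Of 15 integrin subunits tested, 8 were higher under siRelA, 0 lower and 7 not called (median log2 0.48). DESeq2 also called 0 lower, and 0 were lower at an unadjusted edgeR p under 0.05, although 1 was called lower without siRelB replicate 1. ITGA3, a laminin receptor subunit, stood at 1633 and 1485 CPM under siRelA, 594 and 554 under siRelB and 1499 and 1483 in the controls (log2 1.43 ± 0.08, edgeR adjusted p = 1.6e-07). ITGA6, of the same kind, stood at 763 and 704, 405 and 367, and 652 and 717 CPM (log2 0.91 ± 0.08), and the collagen receptor subunit ITGA2 at 224 and 194, 114 and 100, and 191 and 241 CPM (0.95 ± 0.10). For 6 of the 8, the control mean was nearer to siRelA, and for 2 nearer to siRelB. ITGB8 was far higher on the log2 scale (3.59 ± 0.60) but rested on few reads, with 4.12 and 4.22 CPM against 0.583 and 0.101.

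Of 35 tested genes listed as collagens, laminins and matrix glycoproteins, 14 were higher and 4 lower (median log2 0.26). Here the control mean was nearer to siRelB for 11 of the 14. COL5A1, a fibril-forming collagen, stood at 681 and 590 CPM under siRelA, 256 and 259 under siRelB and 296 and 301 in the controls (log2 1.29 ± 0.09, edgeR adjusted p = 7.6e-07). FBN1, the fibrillin of elastic microfibrils, stood at 47.4 and 41.8, 17.3 and 13.8, and 28.2 and 29.3 CPM (log2 1.5 ± 0.15), and COL8A1 was higher by 1.2 ± 0.10. COL12A1 (log2 -0.80 ± 0.09) and EFEMP1 (-0.73 ± 0.11) were lower, with siRelB above the controls for both. FAT3, counted in this list, had the largest lower difference (-2.825 ± 0.404), with the control mean nearer to siRelB. COL1A1 and COL1A2 are also among 12 listed fibroblast markers, 6 of them tested and 2 higher. COL1A1 (0.49) lost its call without siRelA replicate 1 (0.40) or siRelB replicate 2 (0.32), and the fibroblast count then fell to 1. DCN, PDPN and DPT, of the same list, had 0 counts in every library. The summed level of the 12 markers lay at 81.5 and 68.0 CPM under siRelA, 57.6 and 47.4 under siRelB and 46.4 and 43.6 in the controls.

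Proteases and their inhibitors went both ways, with 13 of 32 higher and 6 lower (median log2 0.15). ADAMTS15, a proteoglycan-cleaving enzyme, stood at 361 and 290 CPM under siRelA, 122 and 118 under siRelB and 130 and 143 in the controls (log2 1.42 ± 0.10, edgeR adjusted p = 1.4e-06). ADAM12 (log2 1.65 ± 0.33) and the inhibitor gene TIMP4 (1.26 ± 0.20) were higher. PLAU and PLAUR, described above, belong to this list too, so the plasminogen activator and its receptor were both lower. ADAMTS6 (log2 -1.59 ± 0.22) and the inhibitor gene TFPI2 (-0.59 ± 0.10) were lower as well. MMP11 (1.32) was not called without siRelA replicate 1 (1.26).

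Of 22 tested epithelial junction genes, 10 were higher and 2 lower (median log2 0.43), although E-cadherin stayed near 0. PKP3, a plakophilin of desmosomes, stood at 65.1 and 62.1 CPM under siRelA, 22.5 and 27.8 under siRelB and 37.5 and 35.9 in the controls (log2 1.32 ± 0.12, edgeR adjusted p = 9.9e-06). The membrane protease gene ST14 stood at 9.06 and 6.22 against 1.70 and 2.87 CPM (log2 1.72 ± 0.33), and MARVELD2, which encodes tricellulin, was higher by 1.24 ± 0.32. EPCAM, at 20.0 and 21.4 against 13.3 and 12.6 CPM, was higher by 0.66 ± 0.16, but its highest level of any library was in a control. CLDN12 ran the other way at 20.4 and 22.1, 55.1 and 60.3, and 64 and 76.5 CPM (log2 -1.46 ± 0.12), and so did CLDN1 at a low level (-1.66 ± 0.43). Keratins did not show a direction: 2 of 10 were higher and 3 lower, all by less than 0.7 on the log2 scale, and without siRelB replicate 2 the lower count was 0 and the higher count 1. Without siRelB replicate 1 the higher count was 0. KRT81 lies within the span of KRT86 in GENCODE v44, both are among the 3 lower keratins, and their reads may have been mixed as for TAP1 and PSMB9.

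Of 19 tested luminal and hormone-linked genes, 9 were higher and 0 lower (median log2 0.43). DESeq2 called 7 higher and 0 lower, and 0 were lower at an unadjusted edgeR p under 0.05. PRLR, the prolactin receptor, stood at 19.2 and 18.9 CPM under siRelA, 4.08 and 4.44 under siRelB and 2.54 and 3.00 in the controls (log2 2.14 ± 0.19, edgeR adjusted p = 7.0e-06). GREB1, known as an oestrogen-induced gene, stood at 5.62 and 3.95, 0.795 and 0.656, and 1.08 and 0.794 CPM (log2 2.70 ± 0.43). The siRelA libraries lay far above the other 4 in both. The oestrogen receptor gene ESR1 had no more than 0.283 CPM in any library. The summed level of the 29 listed genes lay at 1300 and 1180 CPM under siRelA, 1190 and 1150 under siRelB and 1430 in both controls. ELF3 (2.85) lost its call without siRelA replicate 1 (2.39), without siRelB replicate 2 (1.87) and in DESeq2 (2.89).

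Mesenchymal genes counted 7 higher and 3 lower among 25 tested (median log2 0.08). The actin-binding genes TPM1, at 118 and 114 against 64.2 and 60.1 CPM, and CALD1, at 247 and 244 against 134 and 129 CPM, were higher by 0.88 ± 0.09 and 0.88 ± 0.08. SNAI2, a transcription factor of the mesenchymal state, was higher by 0.68 ± 0.12. MSN, which ties actin to the membrane, stood at 311 and 300.4 CPM under siRelA, 916 and 928 under siRelB and 1089 and 1113 in the controls (log2 -1.61 ± 0.08, edgeR adjusted p = 3.9e-08). The list thus held genes low in siRelB and genes low in siRelA side by side. CDH11 (0.53) lost its call without siRelA replicate 1 (0.38) or siRelB replicate 2 (0.42), MYL9 (-0.31) without siRelA replicate 1 (-0.26) or siRelB replicate 2 (-0.22), and CD44 (0.26) without siRelB replicate 1 (0.26) or replicate 2 (0.27).

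EGFR and some receptor genes of the TGF-beta, BMP, WNT and Notch pathways were higher under siRelA, although most members of these lists were not called (29 of 43, 19 of 35 and 14 of 23) and the WNT receptor gene FZD1 was lower. EGFR stood at 337 and 327 CPM under siRelA, 180 and 169 under siRelB and 294 and 321 in the controls (log2 0.91 ± 0.08, edgeR adjusted p = 6.9e-06). TGF-beta and BMP genes counted 12 higher and 2 lower among 43 tested (median log2 0.19). The coreceptor gene TGFBR3 stood at 63.9 and 56.7, 20.5 and 19.2, and 46.9 and 56.6 CPM (log2 1.59 ± 0.12), and the BMP receptor gene BMPR2 at 151 and 117, 73.0 and 57.7, and 85.3 and 93.5 CPM (1.02 ± 0.13). The feedback inhibitor gene SMAD7 was higher by 1.16 ± 0.14, and the BMP antagonist gene NOG was lower by -0.84 ± 0.11. The higher count fell to 7 without siRelA replicate 1, and the lower count then was 4. SMAD9 (2.18) lost its call without either siRelA library (2.30 and 2.07) or without siRelB replicate 1 (1.66), and FST (-0.53) without siRelB replicate 2 (-0.48).

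Among 35 tested WNT pathway genes 14 were higher and 2 lower (median log2 0.18), and the higher count fell to 9 without siRelA replicate 2. The ligand gene WNT9A stood at 54.0 and 55.6, 25.3 and 25.7, and 43.2 and 46.3 CPM in siRelA, siRelB and control libraries (log2 1.09 ± 0.11, edgeR adjusted p = 2.2e-05). The receptor genes FZD6 (log2 0.93 ± 0.11) and FZD8 (1.11 ± 0.23) were higher too. The secreted antagonist gene DKK1 was lower at 113 and 144, 290 and 346, and 214 and 220 CPM (log2 -1.32 ± 0.12), and so was FZD1 (-0.57 ± 0.10), another receptor gene, so receptor genes of the pathway were called in both directions. LGR5 (2.42) lost its call without either siRelA library (1.96 and 2.77), without siRelB replicate 2 (1.74) and in DESeq2 (2.45).

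Among 23 tested Notch pathway genes 8 were higher and 1 lower (median log2 0.29), and 4 were higher without siRelB replicate 1. NOTCH2 stood at 410 and 371, 210 and 210, and 326 and 368 CPM (log2 0.88 ± 0.08, edgeR adjusted p = 1.0e-05), and the coactivator gene MAML2 was higher by 1.00 ± 0.13. RBPJ, the DNA-binding partner of Notch, was the gene that was lower, at 117 and 119 against 238 and 208 CPM (log2 -0.93 ± 0.09). HES2 (0.86) lost its call without siRelA replicate 2 (0.63), without siRelB replicate 1 (0.70) and in DESeq2 (0.87). YAP-TEAD target genes did not share a direction, with 6 of 27 higher and 5 lower (median log2 0.00). Those are 22.2% and 18.5%, against 14.0% and 13.8% over all genes. MYOF, a membrane repair protein, stood at 778 and 724, 388 and 374, and 739 and 786 CPM (log2 0.96 ± 0.08), and GLI2, a Hedgehog factor counted in this list, at 41.5 and 36.7, 11.3 and 11.7, and 18.9 and 22.8 CPM (1.75 ± 0.15). AJUBA (log2 -1.23 ± 0.08), CCN2 (-1.15 ± 0.10), NUAK2 (-1.60 ± 0.23) and ANKRD1 (-0.86 ± 0.10) were lower.

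**Figure D4:**
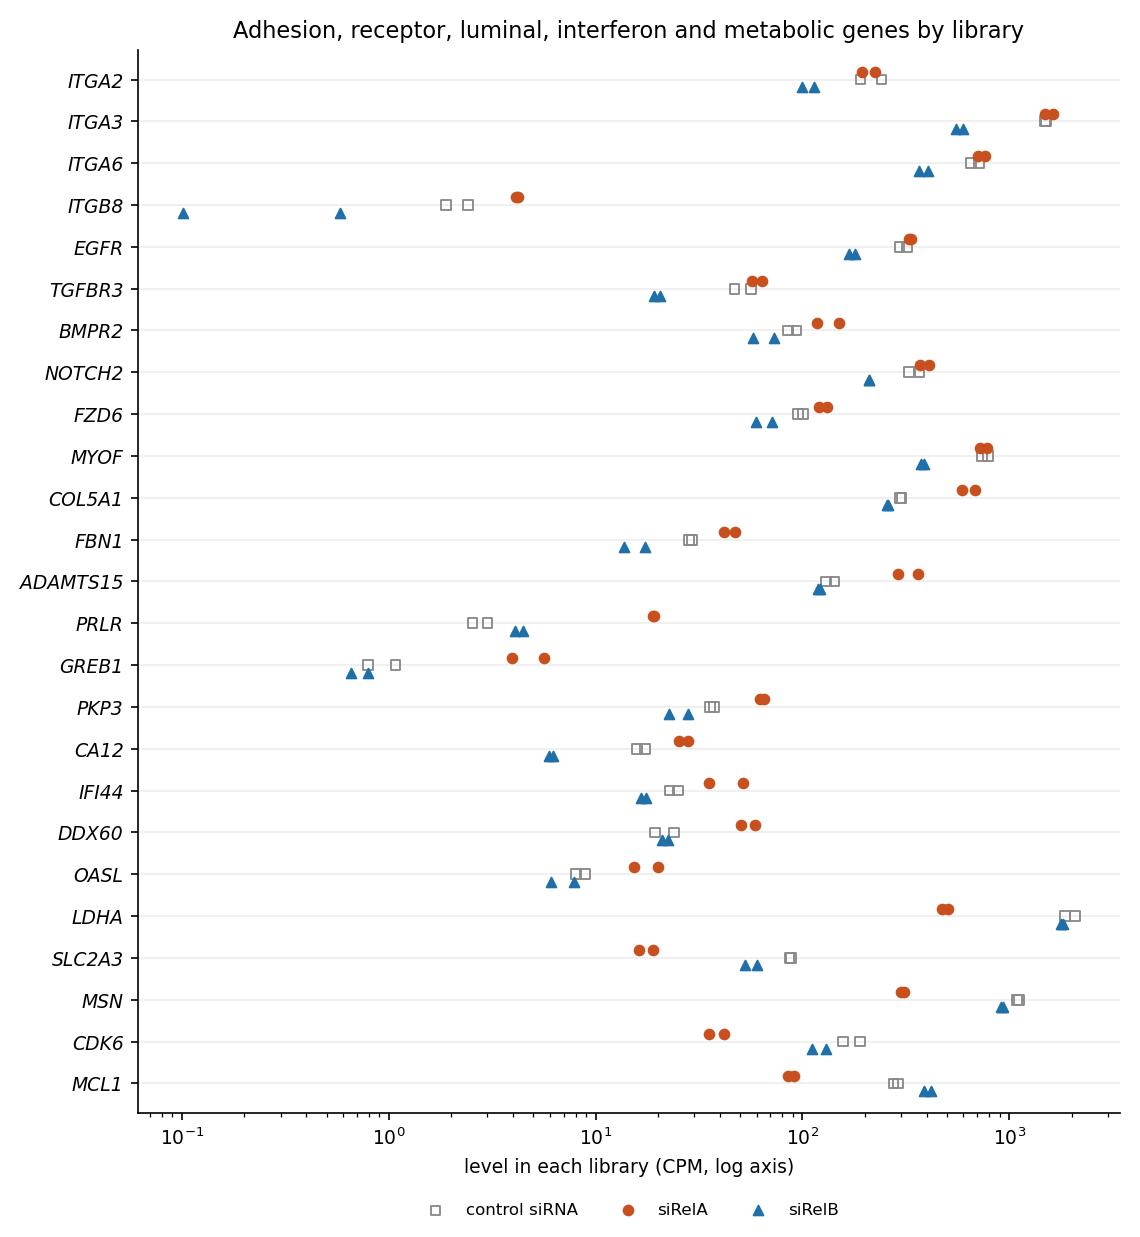
Levels of 25 adhesion, receptor, matrix, luminal, interferon, metabolic and survival genes in each library, in CPM on a log axis, with siRelA as circles, siRelB as triangles and control siRNA as open squares. For ITGA3, EGFR, TGFBR3 and MYOF the triangles lie left of overlapping circles and squares or close to it, for PRLR, GREB1 and DDX60 the circles lie alone on the right, and from LDHA to MCL1 the circles lie alone on the left.

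Among ERK feedback and AP-1 genes, 5 of 28 were higher and 6 lower (median log2 -0.14). Those are 17.9% and 21.4%, against 14.0% and 13.8% over all genes. The phosphatase gene DUSP7 stood at 98.1 and 87.0, 38.8 and 46.3, and 124 and 119 CPM (log2 1.11 ± 0.11, edgeR adjusted p = 1.8e-05), and SPRY2, a brake on receptor tyrosine kinases, was higher by 0.84 ± 0.11. MAFF, a small Maf factor, stood at 14.8 and 15.9, 52.4 and 51.1, and 31.5 and 29.4 CPM (log2 -1.77 ± 0.13), and JUNB (-1.02 ± 0.15) and DUSP6 (-0.78 ± 0.08) were lower too. DUSP7 and SPRY2 were low in siRelB, and MAFF, JUNB and DUSP6 had their highest levels there. SPRED3 (-0.59) was not called without siRelB replicate 1 (-0.48).

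Cell-cycle genes of G1 and S phase counted 17 lower and 6 higher among 49 (median log2 -0.10). The lower count was 10 without siRelA replicate 1 or without siRelB replicate 2, and the higher count 3 without siRelB replicate 1. CDK6 stood at 41.8 and 35.2, 130 and 111, and 157 and 190 CPM (log2 -1.66 ± 0.12, edgeR adjusted p = 1.0e-06), and CDK2 at 26.1 and 32.5, 67.2 and 73.0, and 83.0 and 76.3 CPM (-1.28 ± 0.12). Both encode kinases that drive entry into S phase, and both were lowest in siRelA, with the siRelB libraries also below the controls. The replication genes CDC45 (log2 -0.68 ± 0.10) and CDC6 (-0.67 ± 0.08) were lower, with siRelB above the controls. CDKN2C, an inhibitor of CDK4 and CDK6 kinases, was higher at 70.9 and 71.1, 31.0 and 37.0, and 69.9 and 63.2 CPM (log2 1.05 ± 0.11), and POLA1 was higher by 0.53 ± 0.10. Of 38 G2/M genes 3 were higher and 7 lower, all by less than 0.5 on the log2 scale. Those counts were 0 and 4 without siRelB replicate 2, 7 higher without siRelA replicate 2, and 3 lower without siRelB replicate 1.

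Survival genes were led by MCL1, an anti-apoptotic BCL2 protein. It stood at 91.5 and 84.7 CPM under siRelA, 389 and 416 under siRelB and 276 and 289 in the controls (log2 -2.21 ± 0.09, edgeR adjusted p = 1.0e-08). BMF, a pro-apoptotic BH3-only protein, ran the opposite way at 15.4 and 13.2, 4.24 and 2.82, and 2.71 and 4.54 CPM (log2 2.01 ± 0.24, edgeR adjusted p = 6.7e-05). Another BH3-only gene, PMAIP1, which encodes NOXA, was lower by -0.96 ± 0.10, and the inflammatory caspase gene CASP4 by -1.04 ± 0.14. Of the 26 tested members of this list, 2 were higher and 6 lower (median log2 -0.10). The higher count was 1 without siRelA replicate 1, without either siRelB library, without the filter on low counts and in DESeq2, and BAK1 (-0.39) lost its call without siRelB replicate 2 (-0.27).

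Stress and amino acid response genes counted 16 lower and 2 higher among 36 (median log2 -0.29), a lower count that was 9 without either siRelB library, where the higher count was 1. ATF4, the central factor of this response, stood at 92.4 and 113, 164 and 166, and 143 and 142 CPM (log2 -0.70 ± 0.10, edgeR adjusted p = 2.8e-04). MTHFD2, a mitochondrial folate enzyme, stood at 28.8 and 32.5, 58.7 and 60.6, and 55.4 and 58.4 CPM (log2 -0.98 ± 0.11), and CTH, which makes cysteine, was lower by -1.14 ± 0.22. The cystine transporter gene SLC7A11 was higher instead, by 0.48 ± 0.09. Heat-shock chaperones counted 8 lower and 2 higher among 24, with 5 lower without siRelB replicate 2, 0 higher without siRelB replicate 1 and 1 higher without siRelB replicate 2. HSP90AB1 stood at 1775 and 1754, 2780 and 2719, and 3059 and 2987 CPM (log2 -0.66 ± 0.07), and the cochaperone gene FKBP4 was lower by -0.99 ± 0.08. CHORDC1, another HSP90 partner, lay above the controls in both knockdowns, at 73.4 and 78.5, 148 and 141, and 39.7 and 45.3 CPM (log2 -0.94 ± 0.09).

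Of 7 tested genes in a list of metallothioneins, their regulator MTF1 and the zinc transporter gene SLC30A1, 3 were lower and 0 higher, in DESeq2 and at an unadjusted edgeR p under 0.05 as well. The lower genes were MT2A, MT1E (log2 -0.75 ± 0.13) and MTF1 itself (-0.60 ± 0.15), which lost its call without siRelA replicate 2 (-0.40). MT2A, a metal-binding protein, stood at 285 and 305 against 504 and 577 CPM (log2 -0.89 ± 0.09), although its controls at 768 and 480 CPM were far apart. Genes of cholesterol metabolism counted 6 lower and 1 higher among 31, with 3 lower without siRelA replicate 2 or without either siRelB library and 0 to 2 higher without 1 library. INSIG1, a sterol-sensing brake, was lower by -0.54 ± 0.11. Among 13 tested members of Polycomb repressive complex 2, the histone H3K27 methylation complex that the series also targets, 3 were higher and 1 lower. JARID2, an accessory subunit, stood at 139 and 121, 60 and 55.3, and 69.6 and 71.3 CPM (log2 1.16 ± 0.10, edgeR adjusted p = 5.8e-06), LCOR was higher by 0.83 ± 0.10, PHF19 by 0.40 ± 0.08, and RBBP4 lower by -0.91 ± 0.09. The 13 mRNAs of the mitochondrial genome gave 0 calls in edgeR and in DESeq2 and 0 at an unadjusted edgeR p under 0.05. Without siRelA replicate 2 edgeR called 3 of them higher, without siRelB replicate 1 it called 1 higher, and without siRelA replicate 1 it called 1 lower.

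**Figure D5:**
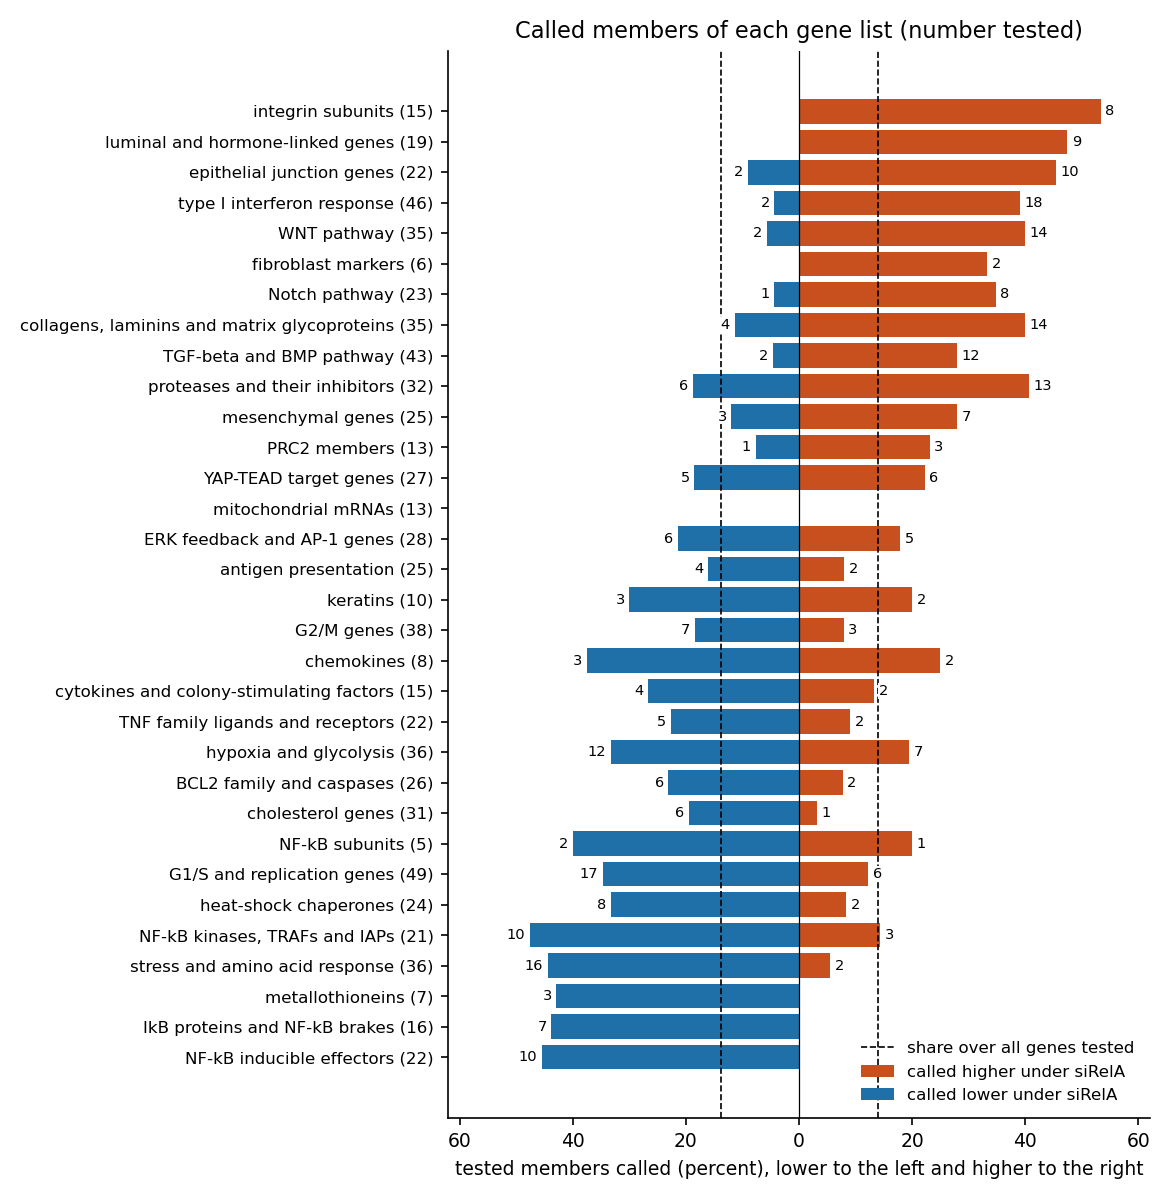
Bars show, for each gene list with at least 5 tested members, the percent called higher (orange, to the right) and lower (blue, to the left) under siRelA, with the number of called members at each bar and the number tested in brackets. Dashed lines mark 14.0% and 13.8%, the shares over all genes tested, and lists are ordered from integrin subunits, with 8 higher and 0 lower, down to NF-kB inducible effectors, with 0 higher and 10 lower.

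Outside these lists lay most of the protein-coding genes that differed most, counting called genes with no overlap between groups and at least 5 CPM in the higher group. Highest under siRelA with these limits were SYT2, ZNF704, ANGPT1, PANX2, MAP2, CDC42BPG, CRACDL, OSTM1, ANK2, HECW1, RCSD1 and CDK15, an order that leaves out genes at lower levels such as ITGB8 (3.59), ELF3 (2.85) and GREB1 (2.70). PANX2 (22:50170731-50180295), a pannexin channel, stood at 30.4 and 24.8 CPM under siRelA, 3.92 and 4.13 under siRelB and 19.6 and 15.5 in the controls (log2 2.76 ± 0.19, edgeR adjusted p = 8.1e-07). OSTM1 (6:108029245-108165854), a lysosomal chloride-transport subunit, stood at 72.1 and 68.3, 13.0 and 14.1, and 52.4 and 61.3 CPM (2.36 ± 0.12), and ANGPT1, a ligand of the endothelial TIE2 receptor, at 9.91 and 9.36, 1.64 and 1.01, and 4.22 and 5.42 CPM (2.84 ± 0.31). The siRelB libraries were the lowest of the 3 groups in all 12 genes. ANK2, an ankyrin that links membrane proteins to the cytoskeleton, was unlike these 3 in that its controls, at 21.1 and 24.0 CPM, lay above siRelA at 15.2 and 19.3 CPM as well as above siRelB at 3.82 and 3.28 CPM.

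With the same limits, which leave out CXCL3 (-3.84) and TNFRSF9 (-2.41), the lowest under siRelA after RELA were U2AF1, CXCL8, FAM167A, BIRC3, FAT3, ALDH9A1, PLA2G12A, BTF3, VAMP7, IL11 and KLF15. BTF3 (5:73498408-73505667), a subunit of the nascent polypeptide-associated complex, stood at 92.5 and 94.5 CPM under siRelA, 480 and 550 under siRelB and 505 and 472 in the controls (log2 -2.48 ± 0.09, edgeR adjusted p = 7.9e-09). ALDH9A1 (1:165662216-165698562), an aldehyde dehydrogenase, stood at 18.2 and 19.2, 126 and 122, and 101 and 105 CPM (-2.75 ± 0.10), and PLA2G12A, a secreted phospholipase, at 1.78 and 2.77, 14.9 and 13.7, and 16.2 and 19.1 CPM (-2.67 ± 0.26). For these the siRelB and control libraries lay close together. U2AF1 is uncertain, since 1 library, siRelB replicate 1, carried the difference at 20.8 CPM against 1.92 in the other siRelB library. Without siRelB replicate 1 it gave -0.78, and neither DESeq2 (-3.34) nor the robust fit (-3.35) called it. U2AF1 also has a near-identical copy, but whether that copy was in the build used for these counts was not checked.

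Called genes also differed in length. The 2033 protein-coding genes called higher had a median span of 59292 bases in GENCODE v44 and a median merged exon length of 6736 bases, against 33857 and 5453 bases for all 12597 protein-coding genes tested. The 2017 called lower had medians of 23611 and 4946 bases. The part of length in the calls was not tested.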

How the data were processed

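The authors deposited raw read counts per Ensembl gene (58735 genes, whole numbers, not normalised). Per the submitters' processing notes, the tools were featureCounts 1.5.0-p3, HISAT2 2.0.5 and DESeq2 1.20.0, and the build was hg19. The sources used here give neither their roles and settings nor the annotation release or strand setting. Gene names and positions are from GENCODE v44 on GRCh38, matched by identifier for 58207 genes and not converted to or from hg19. Genes that passed edgeR's filter by expression (15304) were scaled by TMM and fitted with edgeR 4.0.16 (R 4.3.3) as siRelA against siRelB without the control libraries, with 2 residual degrees of freedom, and p-values were adjusted over all genes tested. The fit was tested on simulated data in which every gene had the same spread, so that test does not give its error rate on these libraries. The biological coefficient of variation was 11.2%. Replicates differed by more than counting noise, with chi-square per degree of freedom of 13.5 for siRelA, 9.93 for siRelB and 10.6 for the controls.

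Lists of genes and the comparison itself were chosen with earlier results of these data known, so list counts are descriptions. Named genes are the NF-kB subunits, every member of the 7 NF-kB lists, 12 protein-coding genes each way with the largest called difference (no overlap, at least 5 CPM in the higher group), up to 4 called members of each list each way, and cell type markers. Uncalled members of the fibroblast and haematopoietic lists are named for their absence, and those with more reads are not all named. SOD2 and PALI1 were not matched and have no value, and some results are not reported here. Promoter windows of 300 bases are from RefSeq on GRCh38.p14, with 11011 tested genes matched by symbol. Alternatives were DESeq2 1.42.0, relative log expression scaling, no filter, all 6 libraries in the fit, a robust fit, the replicate number as a block and leaving out each library. The chromatin libraries and the second RNA experiment were not analysed here.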

Additional observations from a re-analysis of the deposited data

How the results depend on the processing

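The main counts, 2150 genes higher and 2119 lower under siRelA, kept within 1.5 times of their size under each alternative run. They were 2206 and 2061 with relative log expression scaling, 2466 and 2066 without a filter, 2541 and 2227 with all 6 libraries in the fit, 2197 and 2182 with the robust fit, and 1848 and 1762 with DESeq2. Leaving out 1 library gave 1627 to 2171 higher and 1479 to 2168 lower, with the lone library of a group assumed to vary like the other group. RELA stayed between -3.91 and -3.70 and RELB between 1.38 and 1.58 when 1 library was left out, and both kept their calls in every alternative. No gene called in both the main fit and an alternative had opposite signs, and the alternatives shared 69.1% to 99.8% of the 4269 main calls. Of the 209 called genes named, none reversed, 33 lost their call without siRelB replicate 2, 26 without siRelA replicate 1, 23 without siRelB replicate 1, 16 without siRelA replicate 2 and 17 in DESeq2. With the replicate number as a block, 2780 genes were higher and 2904 lower, with 1 residual degree of freedom. Deviations of same-numbered libraries correlated at only 0.0651, and there are 2 numbers, so the main fit did not use the numbers as pairs. Replicate 1 had the larger share of mitochondrial mRNA in each group. The shares were 4.06% against 3.73% for siRelA, 4.21% against 3.45% for siRelB and 4.00% against 3.3% in the controls. An effect of the replicate number was not tested beyond the block fit. The block moved the lower counts of antigen presentation and YAP-TEAD targets to 8 each, of the WNT and the TGF-beta and BMP lists to 4 each and of Polycomb members to 2. It moved the higher counts of G2/M genes to 7, heat-shock chaperones to 6, cholesterol genes to 3 and mitochondrial mRNAs to 2, and those of the NF-kB brakes and of the NF-kB effectors from 0 to 1 each. Genes under about 1 CPM rest on few reads, and 2 libraries a group limit the precision of all differences.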
